A study of Mus musculus with 4 samples.

Results

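The genes described here encode the coats, cargo receptors and accessory proteins that move newly made proteins between the endoplasmic reticulum (ER) and the Golgi. The set of 35 genes was defined by function: 7 p24 (Tmed) cargo receptors, 10 subunits or GTPases of the COPII coat, 7 genes of the COPI coat including its GTPase *Arf1*, 3 KDEL receptors, 7 lectins, other cargo receptors and ER-Golgi intermediate compartment (ERGIC) proteins, and the SNARE *Sec22b*. The list was drawn up with earlier results of these data known. Probes carry accessions only, and 34 of the 35 genes, out of 19752 genes named in this way, had at least 1 probe. No probe was named for *Ergic2*, and it is not analysed here. Where a gene had several tested probes, the one with the highest mean intensity over all arrays was chosen to stand for it, so the intensities were used to pick the probe and carry no finding by themselves. Of the 34 genes, 33 were tested, out of 13167 tested named genes.

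Liver RNA of adult *Rap1*-deficient mice was set against that of wild-type mice on 4 Agilent 2-colour arrays, each of which carried 1 liver of each genotype. The labels give 3 biological replicates per genotype, an age of 30 weeks for both, the mixed background C57BL6/129SV (90%:10%) for both, and RNA integrity numbers of 6.6 to 8.7 not split by genotype. The labels give no sex, whereas the study's text describes females of a slightly higher age, and the mice are described as fed standard chow. The study places those females at the onset of obesity, with a higher mean body weight in *Rap1*-deficient than in wild-type mice. Genotype and body weight therefore cannot be told apart in these livers. The *Rap1*-deficient genotype (Rap1 -/-) is a constitutive whole-body deletion, obtained from a floxed allele (Rap1 flox/flox) by EIIa-cre, a deleter active before implantation, and the colony no longer carries the cre allele. No treatment is given for either genotype. The deletion is in every tissue, so the liver was measured in mice whose other tissues lacked RAP1 too.

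In replicates 1, 2 and 3 RNA of the *Rap1*-deficient liver was labelled with the dye Cy5 and that of the wild-type liver with Cy3. On the remaining array the dyes were swapped, and its number in the labels makes it the swap of replicate 1. Values are log2 ratios of *Rap1*-deficient over wild-type, with the sign of the dye-swapped array turned so that all 4 read the same way. The dye-swapped array was averaged with replicate 1, which left n = 3 pairs of livers. Each gene was tested with limma, with standard errors (SE) over these 3 pairs that limma moderates by the spread of all tested probes. Only the pair of replicate 1 holds both dye orientations, so the SE does not separate dye from the spread between livers. A gene passed the test at a Benjamini-Hochberg false discovery rate (FDR) under 0.15 over all 27513 tested probes.

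The targeted gene, *Terf2ip*, encodes RAP1. In replicates 1, 2 and 3 its probe A_52_P381806 gave log2 ratios of -1.74, -1.92 and -1.91, with -1.68 after the dye swap. The wild-type channel was well above background on 4 of 4 arrays for this probe and the *Rap1*-deficient channel on 0 of 4, so the level in *Rap1*-deficient liver has only an upper bound. Over the 3 pairs it was at least 3.33-fold lower than in wild-type liver (adjusted p = 0.00859, limma). The bound sets the mean wild-type level against the lowest signal well above background on each array, or the probe's own where that is higher. A second probe of the gene, A_55_P2094079, gave 1.17, 1.07, 0.88 and 0.72 on the same arrays. It passed in the opposite direction, with a log2 change of 0.96 (SE 0.087, adjusted p = 0.0329, limma). Both genotypes were well above background on 4 of 4 arrays for this probe. It is also the brighter probe, which the rule above would choose to stand for the gene. Where either probe lies relative to the deletion is not given in the sources.

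Over the tested probes, which are no replicates of each other, the turned ratios of the dye-swapped array had correlations of -0.24, -0.29 and -0.27 with those of replicates 1, 2 and 3. The SD of its log2 ratios was 0.24, against 0.48 to 0.51 on the other arrays. It therefore stood apart from the other 3 arrays, and its value is given beside most results. Per channel 50.1% to 56.4% of spots were well above background and none was saturated, and precision is limited by how few arrays there are.

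Proteins made on the rough ER leave it in vesicles coated with COPII. The small GTPase SAR1 recruits the inner coat of SEC23 and SEC24, in which SEC24 binds cargo, and the outer cage of SEC13 and SEC31 then bends the membrane. Escaped ER proteins and empty receptors return from the Golgi in vesicles coated with COPI, a stable complex of subunits named with Greek letters that is recruited to the membrane by the GTPase ARF1. Members of the p24 family and lectins such as LMAN1 cycle between both organelles and carry selected cargo, while KDEL receptors catch escaped chaperones. The hepatocyte exports albumin, clotting factors and lipoproteins through this route.

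Factors of the ATF6, XBP1 and CREB3 families are known to bind short motifs in promoters of genes of the secretory pathway. Windows of 250 bases before and 50 after the annotated transcription start (RefSeq, GRCm38.p6) were given for 30 of the 35 genes, all but *Tmed2*, *Tmed7*, *Arcn1*, *Kdelr2* and *Lman1*. They were searched on both strands. TGACGTG, the core of the unfolded protein response element, which resembles the cAMP response element, was found in 6 of 30 genes (20%), against 601 of all 27025 genes with a window (2.22%) and 311 of the 10529 tested genes with a window (2.95%). The ER stress elements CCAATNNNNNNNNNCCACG and ATTGGNCCACG were found in 0 of 30 genes, against 0.137% and 0.0444% of all genes. The last letters of TGACGTG can overlap their CCACG part when read on the other strand. CCAAT by itself was in 13 of 30 genes (43.3%), against 41.1% of all genes and 42.5% of the tested ones. The median GC content of the genes' windows was 58.3%, against 59.7% in the windows of all tested genes. The 6 genes that hold TGACGTG join genes of the COPII and COPI coats, *Arf1* and a KDEL receptor by 1 shared motif. Because 5 of these 6 genes also had values on the arrays, the stretches with the motif are shown. Each is read 5′ to 3′ on the strand of its gene, with the motif, or its reverse complement CACGTCA, in capitals.
Sec23a (chr12:59011975-59012041, minus strand): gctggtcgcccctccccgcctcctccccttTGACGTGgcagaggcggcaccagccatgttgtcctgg
Sec24d (chr3:123267440-123267506, plus strand): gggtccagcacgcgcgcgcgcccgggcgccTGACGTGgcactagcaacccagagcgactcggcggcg
Arf1 (chr11:59228210-59228276, minus strand): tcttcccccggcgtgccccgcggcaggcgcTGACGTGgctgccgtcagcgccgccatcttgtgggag
Copb1 (chr7:114254671-114254737, minus strand): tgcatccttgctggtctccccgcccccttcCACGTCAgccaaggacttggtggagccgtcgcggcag
Copb2 (chr9:98563695-98563761, plus strand): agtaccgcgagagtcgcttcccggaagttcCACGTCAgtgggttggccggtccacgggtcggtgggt
Kdelr3 (chr15:79516349-79516415, plus strand): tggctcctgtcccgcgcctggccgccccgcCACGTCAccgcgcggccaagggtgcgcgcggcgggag
The genes with the motif did not share a direction on the arrays. *Sec24d* rose by 0.29 and *Copb1* fell by 0.29, while *Sec23a* (-0.045), *Arf1* (0.18) and *Copb2* (-0.25) did not pass the test and *Kdelr3* was not tested. A match of letters is a description and not evidence of binding.

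The trafficking genes changed in both directions. The SD of their log2 changes was 0.50, against 0.36 over all tested genes. This SD includes *Tmed2*, at 2.46 by its brightest probe, and was not computed without it. All 33 tested genes were well above background on 4 of 4 arrays in both genotypes, which the filter already required in at least 1 genotype. At the FDR of 0.15, 14 of 33 genes (42.4%) passed, of which 10 rose and 4 fell. Over all tested named genes the share that passed was 34.1%, with 18% higher and 16.1% lower. The genes that rose were *Tmed2*, *Tmed3*, *Tmed4*, *Sec13*, *Sec31a*, *Sec24a*, *Sec24d*, *Copa*, *Kdelr1* and *Kdelr2*. Those that fell were *Tmed5*, *Sec24b*, *Sar1b* and *Copb1*. Except for *Tmed2*, the log2 changes of the 14 genes lay between -0.50 and 0.49. The median over the 33 genes was 0.044, against 0.0049 over all tested genes, and array by array it was 0.20, 0.092 and -0.0044 in replicates 1 to 3 and 0.0053 after the dye swap. The balance of directions moved with the normalization. Centring each array on its median in place of loess gave 12 genes that rose and 0 that fell (all genes 21.9%). The median of all tested genes then moved to 0.16. The authors' value table gave 7 that rose and 7 that fell (all genes 37.3%). The direction of each of the 14 genes was kept under all 13 other ways of processing that were tried for them. The count moved when 1 pair of livers was left out, and the share over all tested genes moved with it. It was 17 genes without replicate 1, whose removal also takes out the dye-swapped array (all genes 46.2%), 0 without replicate 2 (all genes 0.0304%) and 3, *Tmed2*, *Tmed4* and *Sec31a*, without replicate 3 (all genes 9.53%). With Agilent's processed signals 7 of 33 genes passed, against 32.2% of all genes.

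**Figure D1:**
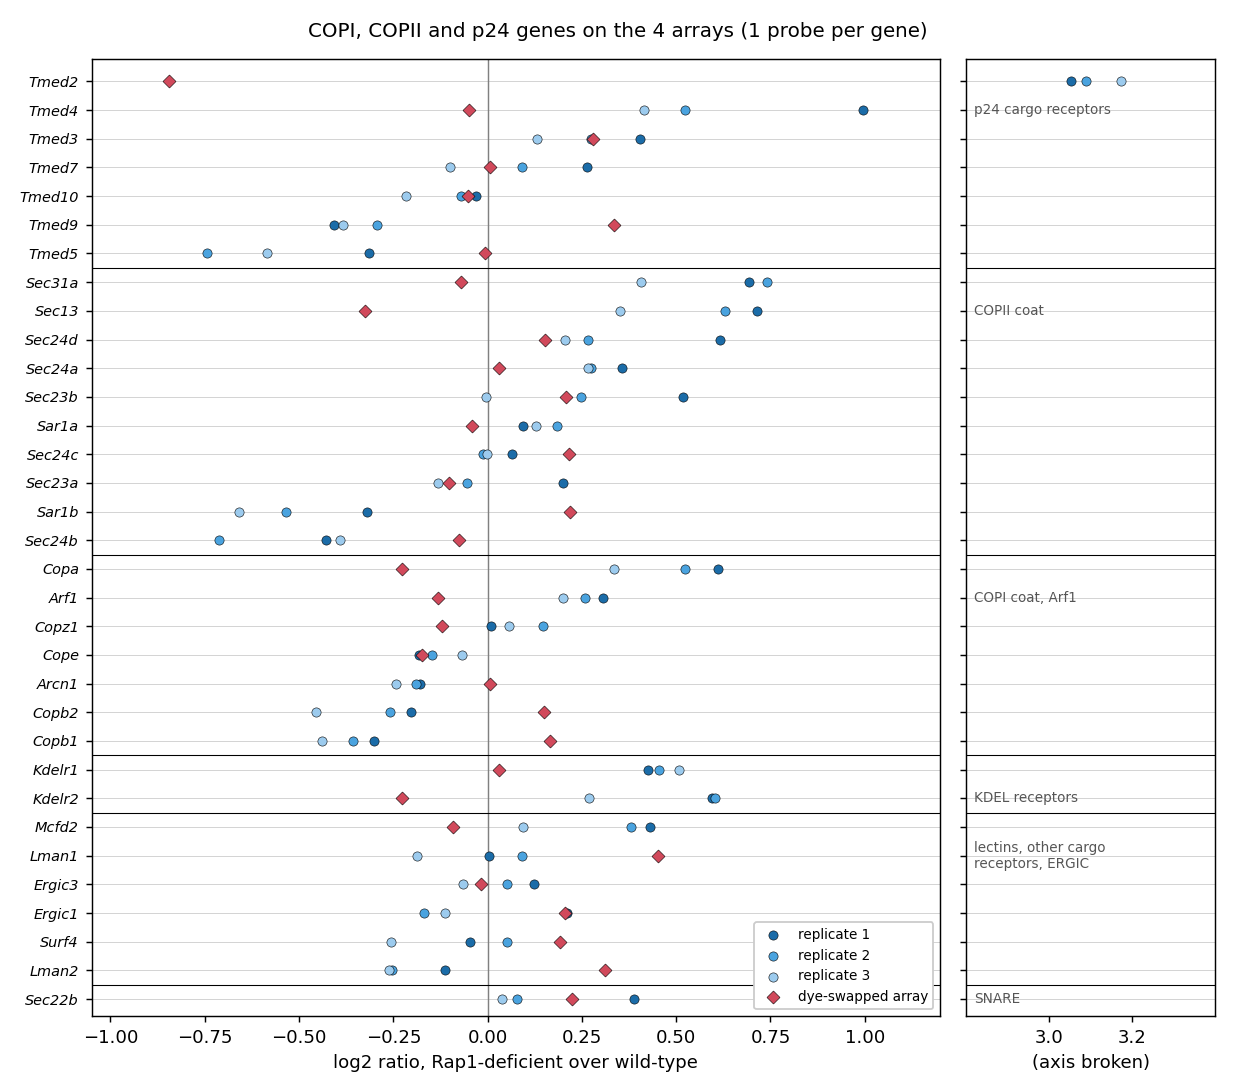
Log2 ratio of *Rap1*-deficient over wild-type liver (horizontal axis, broken to fit *Tmed2*) for the 33 tested genes, grouped by role and ordered by fold change. Circles are replicates 1 to 3 and red diamonds are the dye-swapped array with its sign turned. The diamond lies on the other side of 0 from the circles for *Tmed2*, *Sec13*, *Copa* and *Kdelr2*, and on the same side for *Tmed3*, *Sec24d*, *Sec24b* and *Cope*.

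Agreement over all 4 arrays was the exception. Replicates 1 to 3, hereafter the Cy5 arrays, had the same sign for 25 of 33 genes, 15 higher and 10 lower, and the swap had the opposite sign for 16 of these 25 (64%), against 65.7% over all tested genes. The share of all tested genes that kept their sign on all 4 arrays was 21.8%. By their brightest tested probe 9 of 33 trafficking genes did so. Of these, *Tmed3*, *Sec24a*, *Sec24d*, *Kdelr1* and *Sec22b* were higher and *Tmed5*, *Tmed10*, *Sec24b* and *Cope* were lower in *Rap1*-deficient liver. 6 of the 14 genes that passed were among them (42.9%), against 38.1% of all tested genes that passed. Put the other way, 10 of 33 genes were brighter in the Cy5 channel on all 4 arrays whichever genotype carried it, against 20.8% of all tested genes, and 6 were brighter in Cy3 on all 4, against 21%. Over the 4 arrays a fit with a term for dye orientation passed 1 gene, *Tmed2*, against 6.44% of all tested genes. The orientation term itself passed for 13 of 33 genes, against 26.7%. This fit counts the 4 arrays as separate samples, although 2 of them hold the same pair of livers, and its swapped arm is 1 array with no spread of its own. Normalized log2 intensities of the genotypes, compared over the 4 arrays whatever the dye, did not overlap for 5 genes, against 11.3% of all tested genes. These were *Tmed3*, *Sec24a* and *Sec22b*, higher in *Rap1*-deficient liver, and *Sec24b* and *Cope*, lower.

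**Figure D2:**
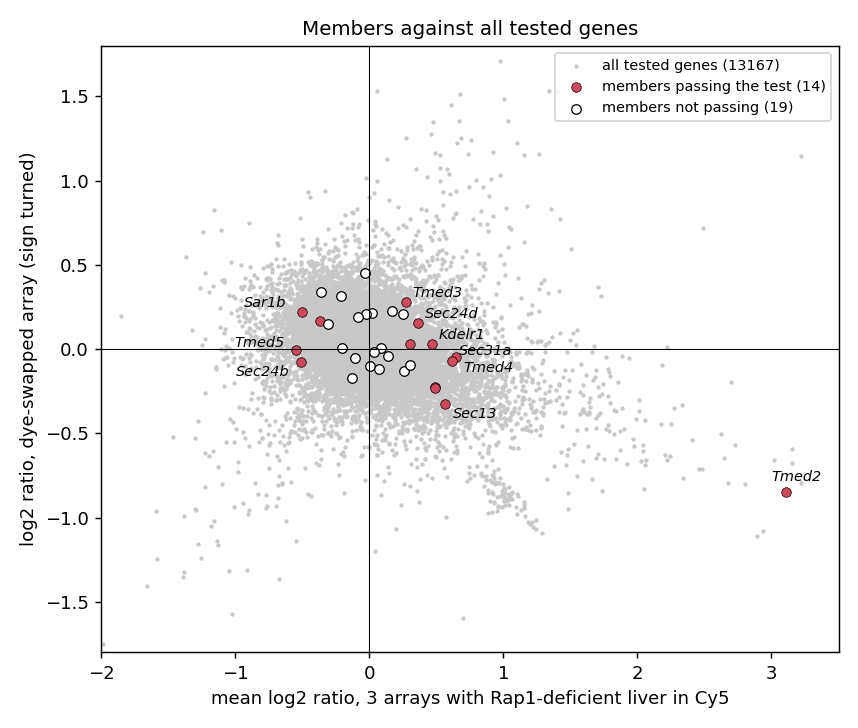
Mean log2 ratio over replicates 1 to 3 (horizontal axis) against the turned log2 ratio of the dye-swapped array (vertical axis), with 13167 tested genes in grey and 13 of them outside the axes. Trafficking genes that passed the test are red and the others are open circles. Genes at the upper right and lower left had the same sign in both dye orientations, as *Tmed3*, *Sec24d* and *Sec24b* did, whereas *Tmed2* and *Sec13* lie in the lower right.

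The p24 genes did not share a direction. Of 7 tested p24 genes 3 rose, 1 fell and 3 did not pass by their brightest probes (57.1% passed, against 34.1% of all tested genes). *Tmed2* (chr5:124540791-124550503), the p24 protein of the beta subfamily, gave the highest log2 ratios of the set, which were 3.05, 3.09 and 3.17 in the replicates in order, and -0.85 on the dye-swapped array. Replicate 1 and its own dye swap thus disagreed in sign, with a mean of 1.10 over the pair. The log2 change over the 3 pairs was 2.46 (SE 0.42, adjusted p = 0.0402, limma), and with a dye term it was 1.13 (adjusted p = 0.0173, limma), in a fit that counts replicate 1 and its swap as separate arrays. Its normalized log2 intensity in *Rap1*-deficient liver was 13.88, 13.97 and 13.96 in Cy5 and 13.18 in Cy3. In wild-type liver it was 10.83, 10.88 and 10.79 in Cy3 and 14.02 in Cy5. Within Cy3 the *Rap1*-deficient liver was therefore above all 3 wild-type livers, whereas within Cy5 the wild-type liver was above all 3 *Rap1*-deficient livers. Without replicate 2 the adjusted p of *Tmed2* was 0.269 (limma). All these values are of its brightest probe, and a second probe gave a log2 change of 0.42 (SE 0.11).

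*Tmed4* (chr11:6270714-6274837), of the alpha subfamily, gave 0.99, 0.52 and 0.42 in replicates 1 to 3 and -0.048 on the dye-swapped array. It was highest in replicate 1, and it rose by 0.47 over the pairs (SE 0.082, adjusted p = 0.0404, limma). *Tmed3* (chr9:89699203-89705043), a gamma p24 protein, gave 0.40, 0.27, 0.13 and 0.28 in the same order. Its level in *Rap1*-deficient liver, 12.5 to 12.7 on the log2 scale, did not overlap with that in wild-type liver, 12.3 to 12.4. It rose by 0.25 (SE 0.088, adjusted p = 0.118, limma), and it was the p24 gene with the closest values in both dye orientations. *Tmed5* (chr5:108121556-108132620), another gamma p24 protein, gave -0.31, -0.74 and -0.58 and, on the dye-swapped array, -0.0079. It fell by 0.50 (SE 0.13, adjusted p = 0.069, limma), although the dye-swapped array was close to 0.

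The other p24 genes did not pass by their brightest probes. *Tmed10*, the delta p24 protein, gave -0.030, -0.069 and -0.22 in replicates 1 to 3 and -0.051 on the swap, with a mean of -0.11 (adjusted p = 0.415, limma). *Tmed9*, an alpha p24 protein, gave -0.41, -0.29 and -0.38 on the 3 Cy5 arrays and 0.34 on the swap, with a mean of -0.24 (adjusted p = 0.168, limma). Its dimmer probe passed in the opposite direction, with a log2 change of 1.07 (SE 0.22, adjusted p = 0.0453, limma). *Tmed7* lay between -0.0998 and 0.26 on the 4 arrays, with a mean of 0.043. The p24 proteins assemble with each other, and these data give no common direction for their transcripts.

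**Figure D3:**
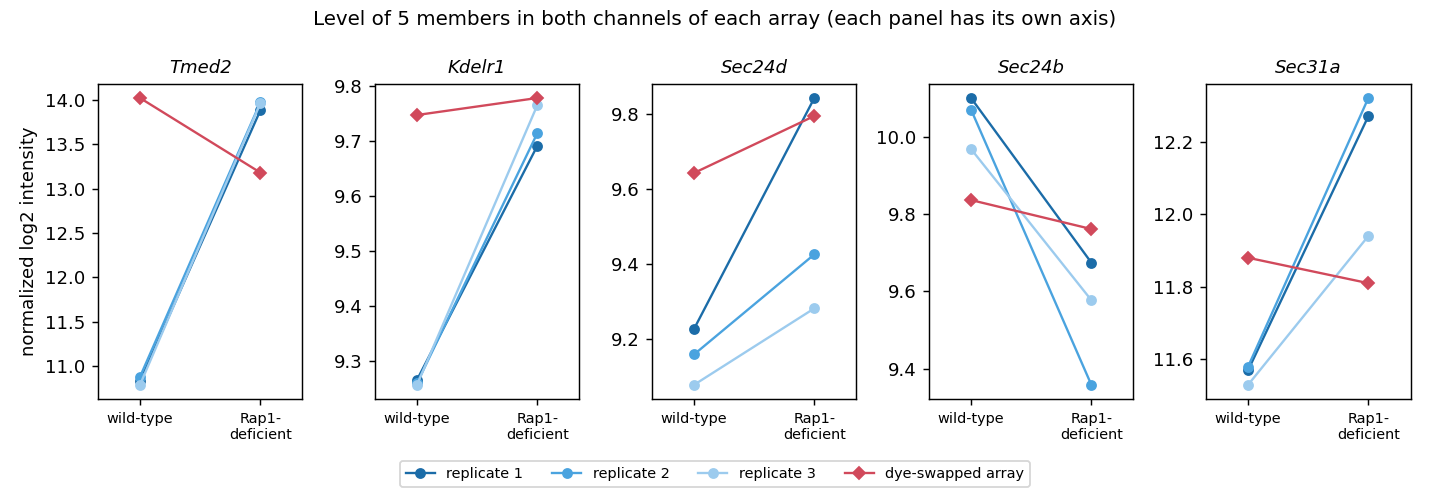
Normalized log2 intensity (vertical axis, its own scale in each panel) of 5 genes in wild-type and *Rap1*-deficient liver, with 1 line per array; blue lines are replicates 1 to 3 and the red line is the dye-swapped array. The red line runs against the blue lines for *Tmed2* and *Sec31a*. For *Kdelr1* and *Sec24d* all 4 lines rise, for *Sec24b* all 4 fall, and for *Kdelr1* the red line is nearly level (0.031).

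Of the 10 COPII genes 4 rose, 2 fell and 4 did not pass (60% passed, against 34.1% of all tested genes). Both partners of the outer cage rose. *Sec31a* (chr5:100361649-100416273) gave 0.69, 0.74 and 0.41 in replicates 1 to 3 and -0.070 on the dye-swapped array, and it rose by 0.49 (SE 0.11, adjusted p = 0.0545, limma). *Sec13* (chr6:113728052-113740681), which also serves in the nuclear pore, gave 0.72, 0.63 and 0.35, and -0.33 on the dye-swapped array. It rose by 0.39 (SE 0.11, adjusted p = 0.0772, limma). For both genes replicate 3 was the lowest of the Cy5 arrays and the dye-swapped array had the opposite sign.

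The paralogues that bind cargo went different ways. *Sec24d* (chr3:123264801-123365641) gave 0.62, 0.27 and 0.20 in replicates 1 to 3 and 0.15 on the dye-swapped array, and it rose by 0.29 (SE 0.086, adjusted p = 0.0873, limma). *Sec24a* (chr11:51692263-51757161) gave 0.36, 0.28 and 0.27, and 0.031 on the dye-swapped array, and it rose by 0.25 (SE 0.082, adjusted p = 0.104, limma). All 4 arrays were above 0 for both genes, by little for *Sec24a* on the dye-swapped array. *Sec24b* (chr3:129982759-130061599) gave -0.43, -0.71 and -0.39, and -0.075 on the dye-swapped array, and it fell by 0.45 (SE 0.11, adjusted p = 0.064, limma). It was below 0 on every array, and its log2 levels of 9.36 to 9.76 in *Rap1*-deficient liver lay under the 9.84 to 10.1 of wild-type liver. *Sec24c*, by contrast, gave 0.064, -0.013, -0.00082 and, on the swap, 0.22, with a mean of 0.042 (adjusted p = 0.751, limma). SEC24 paralogues are known to prefer partly different cargo. The differences among the 4 log2 changes were not tested.

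The SAR1 GTPases gave values of opposite sign. *Sar1b* (chr11:51763663-51791953), the SAR1 paralogue whose loss in humans impairs the export of chylomicrons, gave -0.32, -0.53 and -0.66 in replicates 1 to 3 and 0.22 on the dye-swapped array. It fell by 0.41 (SE 0.14, adjusted p = 0.104, limma), with the opposite sign on the dye-swapped array. *Sar1a* gave 0.094, 0.18, 0.13 and -0.042, with a mean of 0.11 (adjusted p = 0.388, limma). *Sar1b* and *Sec24a* lie close to each other on chromosome 11 and changed in opposite directions. The SEC23 paralogues, which switch off SAR1, did not pass. *Sec23b* gave 0.52, 0.25, -0.0044 and, on the swap, 0.21, with a mean of 0.20 (adjusted p = 0.227, limma), and *Sec23a* gave 0.20, -0.054, -0.13 and -0.10, with a mean of -0.045 (adjusted p = 0.737, limma).

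In the COPI coat 1 gene rose, 1 fell and 5 did not pass (28.6% passed, against 34.1% of all tested genes). The median over the 7 genes was -0.13. *Copa* (chr1:172082529-172122332), the alpha subunit, gave 0.61, 0.52 and 0.34 in replicates 1 to 3 and -0.23 on the dye-swapped array, and it rose by 0.35 (SE 0.099, adjusted p = 0.0765, limma). *Copb1* (chr7:114215559-114254680), the beta subunit, gave -0.30, -0.36 and -0.44, and 0.16 on the dye-swapped array, and it fell by 0.29 (SE 0.10, adjusted p = 0.124, limma). Both genes had the opposite sign on the dye-swapped array. *Copb2*, the beta prime subunit, gave -0.20, -0.26, -0.45 and 0.15 in the same order, with a mean of -0.25 (adjusted p = 0.177, limma). The alpha and beta prime subunits form the outer layer of this coat, and their transcripts had opposite signs on every array. *Cope*, the epsilon subunit, gave -0.18, -0.15, -0.067 and -0.17, lower on all 4 arrays, with a mean of -0.13 (adjusted p = 0.312, limma). Its levels of at most 11.81 in *Rap1*-deficient liver and at least 11.86 in wild-type liver did not overlap. *Arcn1*, the delta subunit (-0.17), *Copz1*, the zeta subunit (0.050), and *Arf1* (0.18) did not pass, and each had the opposite sign on the dye-swapped array from that on all 3 Cy5 arrays. The dimmer probe of *Arcn1* gave 0.39 and did pass.

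Both tested KDEL receptors rose, where 34.1% of all tested genes passed and 18% were higher. *Kdelr1* (chr7:45872840-45883726) gave 0.43, 0.46 and 0.51 in replicates 1 to 3, and 0.031 on the dye-swapped array. It rose by 0.40 (SE 0.095, adjusted p = 0.0584, limma). *Kdelr2* (chr5:143403820-143421904) gave 0.60, 0.60 and 0.27, and -0.23 on the dye-swapped array, and it rose by 0.35 (SE 0.11, adjusted p = 0.0951, limma). The dye-swapped array was near 0 for one receptor and of the opposite sign for the other. *Kdelr3*, whose promoter holds TGACGTG, was not tested, since its *Rap1*-deficient channel was well above background on 1 of 4 arrays and its wild-type channel on 0 of 4.

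None of the 6 tested lectins, other cargo receptors and ERGIC proteins passed by its brightest probe (0%, against 34.1% of all tested genes). The dimmer probes of *Lman2* (0.83) and *Ergic1* (0.24) did pass. The SNARE *Sec22b* did not pass either. *Mcfd2*, which forms with LMAN1 the receptor for clotting factors V and VIII, gave 0.43, 0.38 and 0.095 in replicates 1 to 3 and -0.093 on the swap, with a mean of 0.21 (adjusted p = 0.177, limma). Its partner *Lman1* gave 0.0026, 0.092, -0.19 and, on the swap, 0.45, with a mean of 0.044 (adjusted p = 0.799, limma). The dye-swapped array was thus the lowest for one partner and the highest for the other. *Lman2*, a lectin that recognizes high-mannose glycans, had a mean of -0.14 and *Surf4*, a receptor for secreted cargo in the ER, of -0.044. *Ergic1* and *Ergic3*, membrane proteins of the intermediate compartment, had means of -0.025 and 0.013. *Sec22b*, which acts in fusion between ER and Golgi membranes, gave 0.39, 0.077, 0.039 and 0.22, higher on all 4 arrays, with a mean of 0.14 (adjusted p = 0.339, limma).

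Probes of the same gene did not always give the same value. The 34 genes had 47 probes, of which 46 were tested, and 12 genes had 2 or more tested probes. The dimmest tested probe gave a higher log2 change than the brightest in 10 of 12 genes (83.3%), against 1859 of 3023 tested genes with several probes (61.5%), and both had opposite signs in 5 of 12 (41.7%), against 38.3%. The second probe of *Tmed2* gave 0.66, 0.64, 0.39 and, on the dye-swapped array, -0.20, and its log2 change of 0.42 (SE 0.11) was far under the 2.46 of the brighter probe. The second probe of *Sec31a* gave 1.78, 1.59, 1.12 and -0.56, with a log2 change of 1.11 (SE 0.19). Both probes of each of these genes passed and kept 1 direction, with sizes that differed by more than the SE of either.

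For 4 genes with a probe that passed, the probes disagreed in direction. The dimmer probe of *Tmed9* gave 1.54, 1.62, 1.12 and, on the swap, -0.59, with a log2 change of 1.07 (SE 0.22, adjusted p = 0.0453, limma), whereas the brighter one gave -0.24. The dimmer probe of *Lman2* gave 1.47, 1.03, 0.80 and -0.13, with a log2 change of 0.83 (SE 0.10, adjusted p = 0.0402, limma), against -0.14 for the brighter one. The dimmer probes of *Arcn1* and *Ergic1* gave 0.39 and 0.24, and both passed, against -0.17 and -0.025 for the brighter ones. No direction can therefore be given for these 4 genes. Probes of *Kdelr1* (0.40 and 0.69), *Copa* (0.35 and 0.50), *Tmed5* (-0.50 and -0.36) and *Sec24a* (0.25, 0.14 and 0.29) agreed in the sign of the log2 change over the pairs. Array by array they agreed less. On the dye-swapped array the dimmer probe of *Kdelr1* gave -0.30 and that of *Tmed5* gave 0.20, opposite to their log2 changes. The second probe of *Sec24a* gave -0.051 in replicate 3 and -0.028 on the dye-swapped array, while the third was above 0 on all 4 arrays. Neither probe of *Sar1a* (0.11 and 0.055) or of *Tmed10* (-0.11 and 0.0072) passed, and the dimmer probe of *Tmed10* gave 0.16 on the dye-swapped array. Whether the probes of a gene read different transcripts was not tested, and their sequences were not used here.

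**Figure D4:**
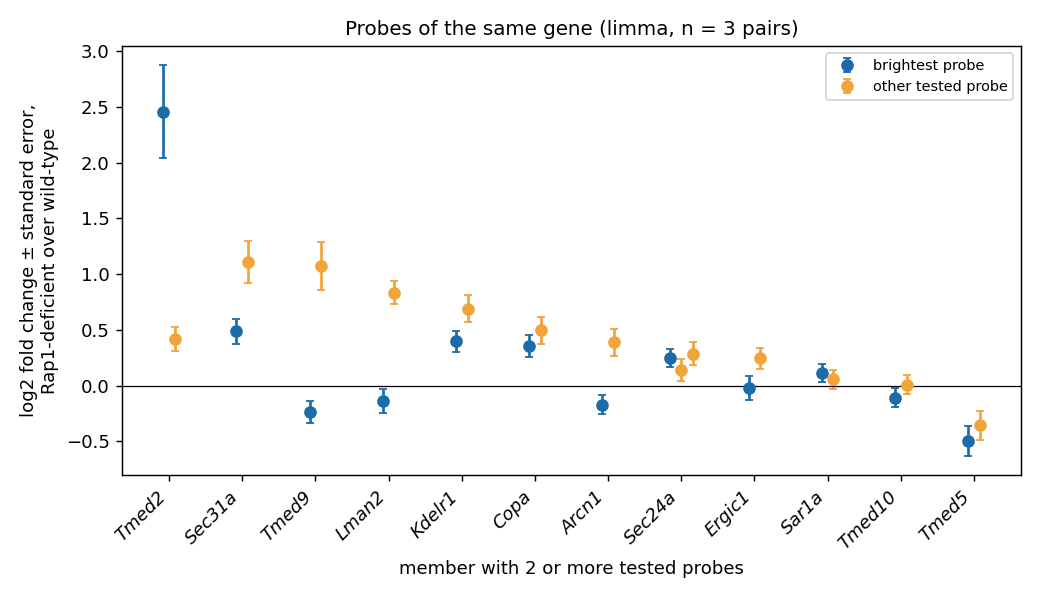
Log2 change of *Rap1*-deficient over wild-type liver with its SE (limma, n = 3 pairs) for each tested probe of the 12 genes with 2 or more; blue is the brightest probe of the gene and orange the others. The orange point lies above the blue one by most for *Tmed9* and *Lman2*, where the blue one is under 0, and far below it for *Tmed2*.

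The rest of the pathway was read from lists of genes written by function, beside the 34.1% of all tested genes that passed. Of 27 tested further COPI, COPII and p24 genes 4 rose and 3 fell (25.9%). *Arf5*, another ARF GTPase, rose by 0.71 with -0.17 on the dye-swapped array. *Copz2*, the second zeta subunit, rose by 0.36 with 0.16 there. *Gbf1*, the exchange factor for ARF1 at the early Golgi, gave 0.57 with 0.0046 there, but its wild-type channel was well above background on 1 of 4 arrays, so that this size is not well measured. *Bcap29*, an ER membrane protein, fell by 0.44. *Copz2*, *Gbf1* and *Bcap29* kept their sign on all 4 arrays.

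Of 38 tested tethers, Rab GTPases and SNAREs between ER and Golgi 7 rose and 4 fell (28.9%). *Rab2a*, a GTPase of the early Golgi, rose by 0.51 and *Nsf*, which takes SNARE complexes apart, by 0.40, with 0.071 and 0.20 on the dye-swapped array. *Cog7*, a subunit of a Golgi tether, rose by 0.59 with -0.29 there. *Trappc6b*, of the TRAPP tether, fell by 0.51 with -0.18 there. Except for *Cog7* these 4 genes kept their sign on all 4 arrays.

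Of 32 tested genes of the machinery that brings proteins into the ER 7 rose and 13 fell (62.5%). This count moved with the processing. With median centring 6 rose and 0 fell (all genes 21.9%). With the mean over all tested probes of a gene 5 rose and 6 fell (all genes 30.8%). With a dye term 1 passed (all genes 6.44%). The count was 0 without replicate 2 (all genes 0.0304%) and 0 without replicate 3 (all genes 9.53%). Whether the list differed from other genes was not tested. *Srp54a*, the GTPase of the signal recognition particle, fell by 0.43 and *Ssr4*, of the translocon-associated complex, by 0.44, with -0.095 and -0.15 on the dye-swapped array. *Rpn1*, a subunit of the oligosaccharyltransferase, fell by 0.48 with 0.30 there, and *Srpr*, the receptor of the particle, rose by 0.38 with -0.18 there. The median of this list was -0.13, against 0.044 for the 33 coat and receptor genes and 0.0049 for all tested genes.

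Other coats of the cell were read the same way. Among 33 tested clathrin and adaptor genes 9 rose and 1 fell (30.3%), including *Cltc*, the clathrin heavy chain (0.48), *Eps15*, an endocytic adaptor (0.41), and *Ap3d1* (0.42), with 0.17, 0.090 and -0.039 on the dye-swapped array. *Ap2a2*, an adaptor subunit, gave 1.69 with -0.66 there, but its wild-type channel was well above background on 1 of 4 arrays and the size is not well measured. Among 30 tested retromer and ESCRT genes 4 rose and 4 fell (26.7%), with *Vps37c* (0.60) and *Vps25* (0.27) higher and *Snx2* (-0.52) and *Tsg101* (-0.39) lower. Of 13 transducers of ER stress and CREB3 factors 2 rose and 1 fell (23.1%). *Atf4*, a factor induced in ER stress, gave -0.38, -0.34, -0.34 and -0.40 on the 4 arrays and fell by 0.35 (SE 0.081, adjusted p = 0.0535, limma). *Ern1*, the sensor IRE1, rose by 0.84 with -0.59 on the dye-swapped array. *Mbtps2*, a protease that activates membrane-bound factors, gave 0.29 with -0.28 there and a wild-type channel well above background on 2 of 4 arrays, and *Creb3l1* had a mean of -0.13 and did not pass.

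**Figure D5:**
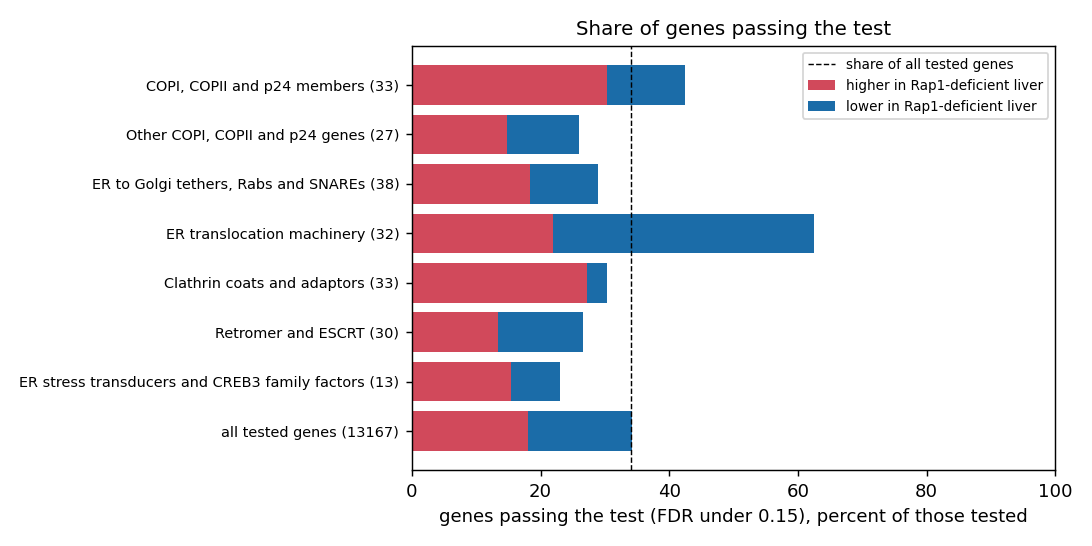
Percent of the tested genes of each list (number in brackets) that passed the test at an FDR under 0.15, split into higher (red) and lower (blue) in *Rap1*-deficient liver; the dashed line is the share over all 13167 tested genes (34.1%). The bar of the ER translocation machinery (62.5%) is the longest, and that of the COPI, COPII and p24 genes reaches 42.4%.

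These are values of whole liver, in which fewer cells of a type and less RNA per cell cannot be told apart. All 12 hepatocyte markers were tested. Their summed linear level in *Rap1*-deficient over wild-type liver was 1.25, 1.23 and 1.15 in replicates 1 to 3 and 0.704 on the dye-swapped array. Of these markers 2 rose and 0 fell (16.7% passed), where 34.1% of all tested genes passed and 18% were higher. The summed Kupffer cell and macrophage markers (8 of 9 tested, *Cd68* not) gave 0.605, 1.08, 2.29 and 0.864, and those of lymphocytes and neutrophils (7 of 9, *Cd79a* and *Ly6g* not) gave 0.838, 0.919, 2.53 and 0.872. Replicate 3 was the highest for both. Stellate cell markers (9 of 9 tested) lay between 0.976 and 1.63, sinusoidal endothelial markers (8 of 8) between 0.921 and 1.28 and cholangiocyte markers (5 of 7, *Krt7* and *Epcam* not) between 0.976 and 1.28. Adipocyte markers (2 of 5) gave 3.94, 1.22, 0.695 and 3.75, with *Adipoq*, *Plin1* and *Lep* not tested. The part of these cells in the values of the trafficking genes was not tested.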

How the data were processed

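The authors deposited each scan as median spot and background intensities, processed intensities and the log10 ratio of Cy5 over Cy3 from Agilent Feature Extraction (10.7.3.1 per the file headers, where the methods give another version), and a value table of log2 ratios that the submitters' processing notes credit to limma. The sign of the dye swap is already turned in this table (r = -0.65 with the deposited ratio), its column medians were -0.012, -0.016, -0.020 and 0.00083, and the sources used here do not give how it was background-corrected and normalized. All 4 arrays were on 1 slide and in 1 scan by their headers, so no batch could be tested.

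Mean spot intensities had been planned but were not among the columns used here, and median intensities were taken. Of 62976 spots per array 59305 were not controls. In limma 3.58.1 (R 4.3.3), intensities went through normexp (offset 50) and within-array loess, for which control spots had weight 0. Spots with an outlier flag were left out and those of 1 probe averaged. A probe was tested if, in 1 genotype or both, 0.5 or more of its spots were well above background on all 4 arrays, which held for 27513 of 55681 probes (49.4%) (lmFit and eBayes, intercept, Benjamini-Hochberg). Channel levels were taken after quantile normalization of mean intensities. RefSeq accessions (GRCm38.p6) named 26056 probes (46.8%).

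The members, the other lists and the rule for named genes were chosen with earlier results of these data known. The rule takes the 12 members with the largest changes, those of 1 sign on all 4 arrays, all paralogue pairs, and up to 4 genes of smallest p in each list. Alternatives concerned the dye swap, normalization, offset, filter, choice of probe and replicates. One marker list is not reported here.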

Additional observations from a re-analysis of the deposited data

Results flagged for a closer look

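For 13 of the 33 tested genes the log2 ratio of *Rap1*-deficient over wild-type liver differed between the dye orientations, by the orientation term of a limma fit over the 4 arrays at an FDR under 0.15. The share over all tested genes was 26.7%, and only 1 array, a repeat of replicate 1, carried the swapped dyes, so that arm has no spread of its own and the p-values rest on the spread of the other 3. The difference, the mean of the 3 arrays with *Rap1*-deficient liver in Cy5 minus the turned dye-swapped array, was 3.95 for *Tmed2*, 0.89 for *Sec13*, 0.72 for *Copa*, 0.72 for *Kdelr2*, 0.69 for *Tmed4*, 0.68 for *Sec31a* and 0.43 for *Kdelr1*. It was -0.72 for *Sar1b*, -0.70 for *Tmed9*, -0.53 for *Copb1*, -0.52 for *Lman2*, -0.48 for *Lman1* and -0.46 for *Copb2*. Adjusted p-values (limma) ran from 0.00411 for *Tmed2* to 0.147 for *Copb2*.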

How the results depend on the processing

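Against 14 genes that passed, a dye term over the 4 arrays passed 1 (6 at an unadjusted p under 0.05; all genes 6.44%), the swap counted as another replicate passed 0 by limma (9 at an unadjusted p under 0.05; all genes 0.342%) and Agilent's processed signals passed 7 (all genes 32.2%, so that the share of the 33 genes was then the lower one). Leaving out 1 replicate at a time gave 0 (without replicate 2) to 17 genes (all genes 0.0304% to 46.2%). The median over the genes, 0.044, moved to 0.22 with median centring, where that of all genes was 0.16, and to 0.18 with the dimmest tested probe of each gene, an alternative chosen after seeing the data. Without 1 replicate it ranged from -0.0037 to 0.10. Genes brighter in Cy5 on all 4 arrays numbered 26 in place of 10 with median centring (all genes 54.2%). The 59 genes of the other lists that passed (all genes 34.1%) became 8 with a dye term (all genes 6.44%). They became 0 with the swap as a replicate (all genes 0.342%) and 33 with median centring (all genes 21.9%). Without 1 replicate they numbered 0 to 73 (all genes 0.0304% to 46.2%). The remaining settings kept these counts within 1.5 times. Each ratio is taken within an array, so the test over 3 pairs is itself the paired analysis.

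None of the 14 genes that passed reversed. The sign turned for these others. With a dye term *Copz1* was -0.025, *Lman2* 0.051, *Surf4* 0.054 and *Ergic1* 0.091, and *Ergic1* was 0.034 with the swap as a replicate. Without the dye-swapped array *Sec23a* was 0.0053 and *Lman1* -0.031. With median centring *Tmed10* was 0.078, *Sec23a* 0.13, *Cope* 0.018, *Lman2* 0.030, *Surf4* 0.13 and *Ergic1* 0.15. *Ergic3* was -0.020 with processed signals, -0.040 in the value table and -0.0033 with an offset of 10. With the mean over probes *Tmed9* was 0.42, *Arcn1* 0.11, *Lman2* 0.35 and *Ergic1* 0.11. Without 1 replicate *Tmed7* ranged from -0.0037 to 0.11, *Sec24c* from -0.0067 to 0.070, *Lman1* from -0.048 to 0.16, *Ergic3* from -0.0068 to 0.052, *Surf4* from -0.10 to 0.062 and *Ergic1* from -0.14 to 0.048. The cause of these changes was not tested. With 3 pairs and 1 swapped array, the dye and the genotype are separated by 1 array.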
